A study of Mus musculus with 3 samples.

Results

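Ndufa4l2 and 9 genes of the hypoxia response and glycolysis, Hif1a, Vegfa, Egln3, Pdk1, Bnip3, Hk2, Pgk1, Ldha and Slc2a1, were followed in single-cell RNA sequencing of Müller glia (MG), the radial glia of the retina, sorted from mouse retinas. They were found by symbol among the 32287 features of the files, and all 10 were present. They were chosen with measured values of these libraries known, so their levels in sorted MG are a description. The 3 libraries came from Glast-CreERT2; R26-CAG-LSL-Tdt mice, in which tamoxifen (75 mg/kg, given on 5 days from postnatal day 20 (P20)) switches on tdTomato in cells that use the Glast promoter, and each library pooled 2 to 4 retinas taken at P51. Control eyes received AAV7m8-GFAP-GFP-LacZsh at P28. CCA eyes, for cell cycle activation, received at P28 a 9 to 1 mixture of AAV7m8-GFAP-cyclinD1-p27sh, which adds cyclin D1 and knocks down p27 (Cdkn1b), and the control virus. CCANT eyes received the CCA mixture followed by the excitotoxin NMDA at P35 and the histone deacetylase inhibitor TSA at P37. In all vectors a promoter from human GFAP drives expression, and all cells were sorted for tdTomato. Each group is 1 library, so every interval below is an exact 95% interval for counting error alone, no difference was tested between animals, and animal, library and treatment cannot be told apart.

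At normal oxygen, prolyl hydroxylases such as that encoded by Egln3 mark hypoxia-inducible factor (HIF) for destruction, so the activity of Hif1a is set mainly at the protein and not at its mRNA. Stabilised HIF binds short DNA elements with the core ACGTG or GCGTG and raises genes for glucose uptake, glycolysis, lactate formation, vessel growth and the restraint of mitochondrial respiration. The retina relies on glycolysis even when oxygen is present, photoreceptors hold much of its hexokinase 2, and MG exchange glucose and lactate with them. Ndufa4l2, a paralog of the complex IV subunit Ndufa4, encodes a HIF-1 target that lowers mitochondrial respiration and is also a known transcript of pericytes, the contractile cells around capillaries.

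The kept cells, those in the authors' series-wide counts table, numbered 3758 in control, 3890 in CCA and 3278 in CCANT, with a median of 24235.5, 20710.5 and 20721.5 unique molecular identifiers (UMIs, one per captured transcript) a cell and 95458516, 83266870 and 70825549 UMIs in all. By the clusters named below, 3704, 3515 and 2773 kept cells were MG in control, CCA and CCANT. Mixed cells, with markers of MG and another class, were 33, 222 and 440 of the kept cells. Rods were 9, 26 and 14, and cells of unnamed clusters 10, 126 and 50. Levels are given as UMIs per 1000000 UMIs of the cells summed (CPM). Cdkn1b, the target of the knockdown, had 226 CPM in control, 84.4 CPM in CCA and 106 CPM in CCANT. Ccnd1, the mouse gene of cyclin D1, which the vector adds, was lower as well, with 213 CPM in control, 136 CPM in CCA and 129 CPM in CCANT, and whether vector transcripts count toward it was not tested. The 9 MG markers summed to 15899, 13842 and 12996 CPM. The 10 rod markers summed to 335 CPM in control (95% interval 331 to 338), 963 CPM in CCA (956 to 970) and 1790 CPM in CCANT (1780 to 1800), and none of the 10 was at 0 in any library. Kept control cells with a clear sex were all male (3505 cells), those of CCA all female (3859), and CCANT held 1183 male and 1718 female cells, so sex and CCA cannot be told apart. Between libraries 182 cell barcodes were shared, 14 of them among kept cells.

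Ndufa4l2 lies on the plus strand of chromosome 10, at chr10:127514967-127517154 of mm10, and overlaps a gene on the other strand, Shmt2. In kept cells it had 353 UMIs in control, 2332 in CCA and 2791 in CCANT. These were 3.70 CPM in control (3.32 to 4.10), 28.01 CPM in CCA (26.9 to 29.2) and 39.4 CPM in CCANT (38.0 to 40.9). The control library was the lowest and CCANT the highest, and none of the 3 intervals overlapped. Ndufa4l2 was 7.57-fold higher in CCA than in control (log2 ratio 2.92, 2.76 to 3.09) and 10.7-fold higher in CCANT than in control (3.41, 3.25 to 3.58). Ordered by ratio from the highest, it was gene 148 of 16224 genes with at least 100 UMIs over control and CCA, and gene 63 of 15970 over control and CCANT. The CCA and CCANT comparisons share the control library.

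Most kept cells had no Ndufa4l2 UMI. After each cell was thinned to 8000 UMIs, which left out 36, 103 and 53 shallower cells, an Ndufa4l2 UMI was found in 1.80% of control cells (1.40 to 2.28%), 12.2% of CCA cells (11.2 to 13.3%) and 13.8% of CCANT cells (12.6 to 15.04%). Without thinning the shares were 4.92%, 18.6% and 24.8%. Bipolar cells, neurons in which the gene was among the lowest, had a thinned share of 0.360% in control, 1.52% in CCA and 1.15% in CCANT, at unthinned median depths of 16809.5, 14983.5 and 14353.0 UMIs. The share in kept cells was above that of bipolar cells in each library, by least in control, where the 2 intervals (0.0437 to 1.30% in bipolar cells) did not meet. The cell with the most had 23 UMIs in control, 35 in CCA and 49 in CCANT. The 38 kept control cells with the most held 52.7% of its Ndufa4l2 UMIs, the top 39 of CCA 27.8% and the top 33 of CCANT 23.4%. Intervals that treat UMIs as independent are too narrow for such counts.

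**Figure D1:**
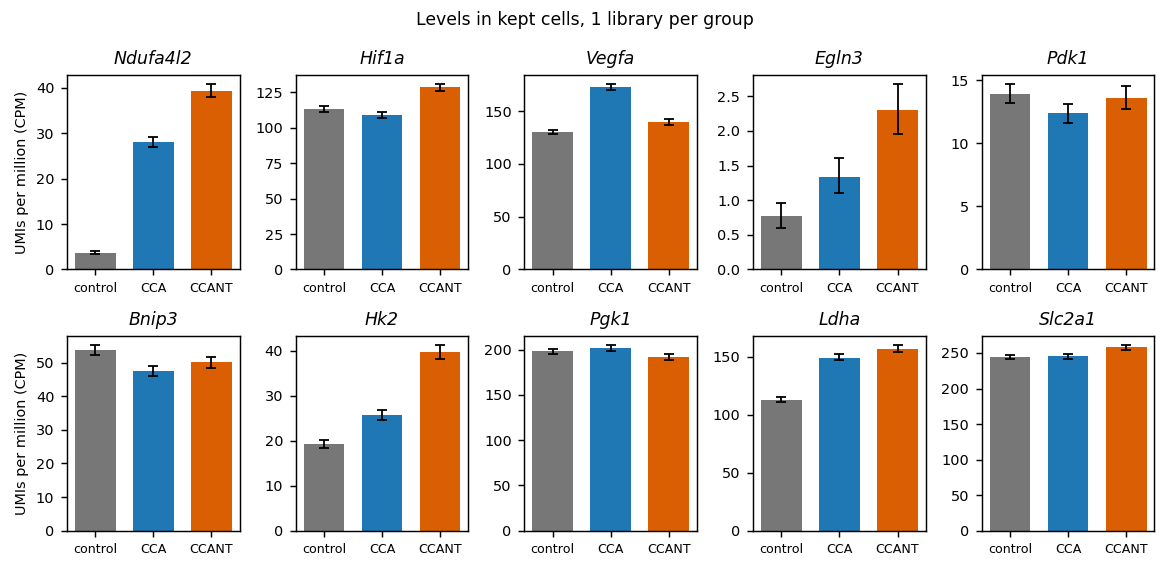
Levels of the 10 genes in kept cells, in CPM (linear axes that start at 0 and differ between panels), with 1 bar for each library and error bars for the exact 95% counting interval. Ndufa4l2 stands at 3.70, 28.01 and 39.4 CPM in control, CCA and CCANT, while Pgk1 stays between 192 and 202 CPM.

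Among the regulators, Hif1a, the oxygen-regulated HIF subunit, was close to equal in the 3 libraries, with 113 CPM in control (111 to 115), 109 CPM in CCA (107 to 111) and 129 CPM in CCANT (126 to 131). Its log2 ratio to control was -0.05 (-0.09 to -0.01) in CCA and 0.19 (0.15 to 0.23) in CCANT. Rods had far more Hif1a, with 641 CPM in control. Kept cells with at most 2 rod marker UMIs per 10000 had 114 CPM in control (111 to 118), 103 CPM in CCA (97.4 to 109) and 118 CPM in CCANT (104 to 132). At over 2 to 5, control had 111 CPM (108 to 114) and CCANT 118 CPM (114 to 122). The part of rod transcripts in the Hif1a ratios was not tested. Egln3, a HIF prolyl hydroxylase that is itself a HIF target, was rare, with 73, 111 and 163 UMIs. Its level was 0.765 CPM in control (0.599 to 0.962), 1.33 CPM in CCA (1.10 to 1.61) and 2.30 CPM in CCANT (1.96 to 2.68), in the same order as Ndufa4l2. Egln3 was 1.74-fold higher in CCA than in control (log2 ratio 0.80, 0.36 to 1.25) and 3.01-fold higher in CCANT (1.59, 1.18 to 2.01).

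Vegfa, the secreted growth factor that drives vessel growth, was the one gene of the 10 that was clearly highest in CCA, at 173 CPM (170 to 176) against 130 CPM in control (128 to 132) and 140 CPM in CCANT (137 to 143). Its log2 ratio to control was 0.41 (0.38 to 0.45) in CCA and 0.11 (0.07 to 0.15) in CCANT. Bnip3, a mitochondrial receptor for mitophagy, was somewhat highest in control, at 53.7 CPM (52.2 to 55.2) against 47.6 CPM in CCA (46.1 to 49.1) and 50.1 CPM in CCANT (48.5 to 51.8). Pdk1, which holds pyruvate dehydrogenase inactive, had 13.9 CPM in control (13.2 to 14.7), 12.4 CPM in CCA (11.6 to 13.1) and 13.6 CPM in CCANT (12.7 to 14.5), and its CCANT interval overlapped both others.

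Among the genes of glucose use, Slc2a1, the glucose transporter Glut1, had 244 CPM in control (241 to 247), 245 CPM in CCA (242 to 248) and 258 CPM in CCANT (254 to 261). Pgk1, the glycolytic phosphoglycerate kinase encoded on the X chromosome, had 198 CPM (195 to 201), 202 CPM (199 to 205) and 192 CPM (189 to 195). Neither gene's log2 ratio to control went beyond 0.08 in either direction. Ldha, which turns pyruvate into lactate, was higher in CCA at 149 CPM (147 to 152) and in CCANT at 157 CPM (154 to 160) than in control at 113 CPM (111 to 115). The log2 ratios of Ldha were 0.40 (0.36 to 0.44) and 0.48 (0.44 to 0.51). Hk2, the hexokinase of the first step of glycolysis, had 19.4 CPM in control (18.5 to 20.3), 25.8 CPM in CCA (24.7 to 26.9) and 39.8 CPM in CCANT (38.3 to 41.3), giving log2 ratios of 0.41 (0.32 to 0.50) and 1.04 (0.95 to 1.12).

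**Figure D2:**
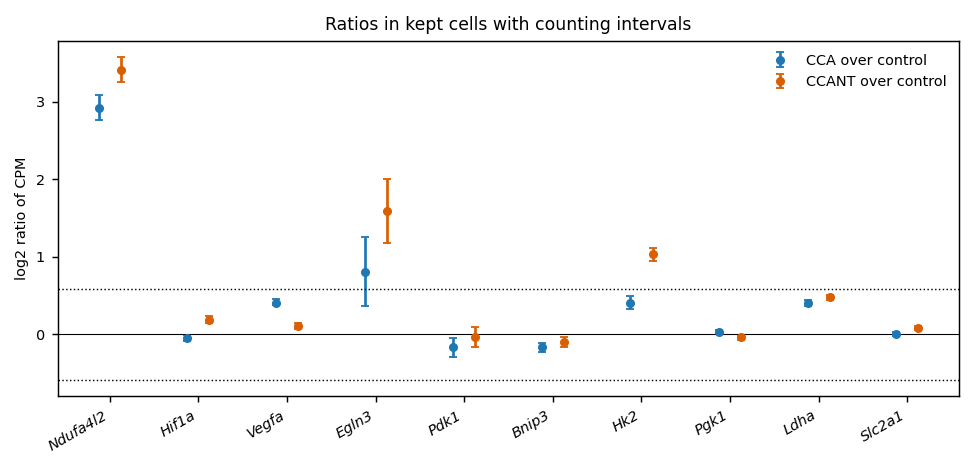
Log2 ratios of CPM in kept cells, CCA over control and CCANT over control, for the 10 genes. Points are ratios, bars the exact 95% counting interval, and dotted lines mark 1.5-fold in either direction. Ndufa4l2 (2.92 and 3.41) and Egln3 (0.80 and 1.59) lie above the upper line in both comparisons, Hk2 in CCANT only (1.04).

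All 10 genes had at least 100 UMIs in the kept cells compared. In CCA over control 2 of the 10, Ndufa4l2 and Egln3, were at least 1.5-fold higher, beside 10.2% of all 16224 genes, and 0 were at least 1.5-fold lower, beside 2.57%. Without cells that held a pericyte gene UMI the CCA count was 1, since Egln3 was then at a log2 ratio of 0.34 (-0.50 to 1.22). In CCANT over control 3, Ndufa4l2, Egln3 and Hk2, were at least 1.5-fold higher, beside 9.74% of all 15970 genes, and 0 lower, beside 5.02%. With at most 5 rod UMIs per 10000 the CCANT count was 2, since Hk2 was then at a log2 ratio of 0.58. The genes were chosen with this contrast known, so these counts describe the choice. The median log2 ratio of the 10 was 0.22 in CCA and 0.15 in CCANT, and that of all genes 0.06 and 0.03. From CCA to CCANT Ndufa4l2 was higher by a log2 ratio of 0.49 (0.41 to 0.57), Hk2 by 0.62 (0.54 to 0.71) and Egln3 by 0.79 (0.43 to 1.15), while Vegfa was lower (-0.30, -0.34 to -0.26).

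Windows before RefSeq starts were found for 9 of the 10 genes, all but Ndufa4l2, in the RefSeq promoter table (GRCm38.p6), which gives some genes more than 1 window. Within the 250 bases before each start that RefSeq gives, the HIF core, searched as ACGTG or GCGTG on both strands with overlapping matches counted, occurred in 10 of 12 windows and in at least 1 window of all 9 genes. In 9 of the 12 windows the 30 bases that end the table's sequence, past the start, were found in a GENCODE transcript of the gene. Of these 9 windows 7, of 7 genes, held a match. The ends of the other 3, the only window of Hif1a and 1 each of Vegfa and Ldha, were not found in one, and the window of Vegfa that was found in a transcript held no match. The window of Hif1a, both of Ldha, 1 of Pdk1 and the Vegfa window with matches lay inside the gene's GENCODE span. The matches of Hif1a, Vegfa and Ldha were thus not upstream of the annotated gene. Over all 32851 windows of this length 38.6% held a match and 1.01% held at least 5. The flanks below are of 2 genes that were past 1.5-fold in kept cells, Egln3 (chr12:54203875-54204124, minus strand, 1 match) and Hk2 (chr6:82774455-82774704, minus strand, 2 matches), and of 2 that were not, Pgk1 (chrX:106186850-106187099, plus strand, 2 matches) and Bnip3 (chr7:138909507-138909756, minus strand, 5 matches), each read 5′ to 3′ along its gene with the matches in capitals.
Egln3: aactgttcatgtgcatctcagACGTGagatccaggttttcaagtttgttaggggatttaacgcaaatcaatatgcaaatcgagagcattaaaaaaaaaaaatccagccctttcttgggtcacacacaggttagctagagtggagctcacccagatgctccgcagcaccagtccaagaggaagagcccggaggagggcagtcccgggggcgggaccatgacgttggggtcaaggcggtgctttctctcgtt
Hk2: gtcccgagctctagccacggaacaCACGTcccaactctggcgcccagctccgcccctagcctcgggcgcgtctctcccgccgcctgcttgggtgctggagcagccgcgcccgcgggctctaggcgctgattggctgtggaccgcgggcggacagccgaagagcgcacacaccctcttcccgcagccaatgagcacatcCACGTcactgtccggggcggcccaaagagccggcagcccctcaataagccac
Pgk1: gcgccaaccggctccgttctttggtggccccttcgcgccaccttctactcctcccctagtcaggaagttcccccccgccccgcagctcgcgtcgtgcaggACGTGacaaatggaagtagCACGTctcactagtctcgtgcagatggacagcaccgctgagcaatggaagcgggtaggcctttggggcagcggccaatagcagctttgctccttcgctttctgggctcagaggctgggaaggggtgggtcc
Bnip3: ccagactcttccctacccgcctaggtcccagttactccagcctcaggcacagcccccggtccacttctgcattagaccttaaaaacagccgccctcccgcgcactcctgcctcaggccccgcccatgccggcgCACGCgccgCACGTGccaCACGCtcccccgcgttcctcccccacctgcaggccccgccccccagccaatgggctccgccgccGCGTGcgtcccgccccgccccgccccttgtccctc
Bnip3 with 5 matches was slightly lower in CCA than in control, and Egln3 with 1 was higher. Hk2 with 2 was higher too, as was Ldha, which had 5 in its window not found in a transcript. Match number was not tested against the ratios. A match describes the letters in the window, and binding was not measured.

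The other genes of the pathway were taken as lists of 8, 30, 23 and 14 genes, and their counts stand beside the shares of all genes given above. Of the 8 HIF pathway genes, 1 was at least 1.5-fold lower in CCA than in control. This was Hif3a, an inhibitory HIF subunit, at 84.7 CPM in control and 46.5 CPM in CCA (log2 ratio -0.87, -0.92 to -0.81), and none of the 8 was past 1.5-fold in CCANT. Of 27 hypoxia targets with at least 100 UMIs, 3 were higher in CCA, beside 10.2% of all genes, and 0 lower, beside 2.57%. Of 26 in CCANT, 5 were higher, beside 9.74% of all genes, and 0 lower, beside 5.02%. The largest difference was that of Adm, the vasodilator peptide adrenomedullin, from 0.440 CPM in control to 3.18 CPM in CCA (2.85, 2.38 to 3.36) and 4.41 CPM in CCANT (3.32, 2.86 to 3.82). Ndrg1, a stress-responsive gene, came next, at 31.2 CPM in control, 54.5 CPM in CCA (0.81) and 74.6 CPM in CCANT (1.26). The third was the repressor Bhlhe40 in CCA (0.63, 0.58 to 0.68) and the lactate exporter Slc16a3 in CCANT (0.92, 0.66 to 1.19). Rods had more than kept cells of Ndrg1 (228 CPM in control, 195 CPM in CCANT) and of Slc16a3 (26.8 and 21.9 CPM). Adm and Bhlhe40 had fewer than 100 UMIs over the rods of control and CCANT. The part of rod transcripts in these ratios of kept cells was not tested. The medians of the hypoxia list, 0.02 in CCA and 0.00 in CCANT, lay below those of all genes.

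Of 23 genes of glycolysis and pyruvate use, 1 was at least 1.5-fold higher and 0 lower in each comparison, beside the same 10.2% and 2.57% of all genes in CCA and 9.74% and 5.02% in CCANT. It was Pdk4, another pyruvate dehydrogenase kinase, with a log2 ratio of 0.71 in CCA (0.36 to 1.07) and 0.71 in CCANT (0.34 to 1.08). Of 13 complex IV genes with enough UMIs, 1 was higher and 0 lower in each, beside those same shares. It was Cox7a1, a subunit typical of muscle, at 8.27 CPM in control, 13.3 CPM in CCA and 18.1 CPM in CCANT. Ndufa4, the paralog of Ndufa4l2, differed far less than it, with 225 CPM in control, 260 CPM in CCA (0.21, 0.18 to 0.24) and 308 CPM in CCANT (0.45, 0.43 to 0.48). Rods had 478 CPM of Ndufa4 in control and 952 CPM in CCANT, and the part of rod transcripts in this was not tested. Cox4i2, the complex IV isoform induced at low oxygen, was slightly lower in both, at 509, 456 and 437 CPM.

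The sexes in CCANT allowed ratios within a sex. Among male cells Ndufa4l2 had 3.75 CPM in control and 46.3 CPM in CCANT (log2 ratio 3.63, 3.45 to 3.80), Egln3 0.750 and 2.46 CPM (1.72, 1.20 to 2.23), and Hk2 19.2 and 39.5 CPM (1.04, 0.93 to 1.16). Among female cells Ndufa4l2 had 27.9 CPM in CCA and 34.2 CPM in CCANT (0.29, 0.19 to 0.39), and Vegfa 173 and 129 CPM (-0.42, -0.47 to -0.38). Within CCANT, female cells were lower than male cells in Ndufa4l2 (-0.44, -0.55 to -0.32), Vegfa (-0.26, -0.32 to -0.19) and Ldha (-0.13, -0.19 to -0.08). The X-linked Pgk1 was at 192 CPM in both sexes of CCANT. Male and female cells of this library came from different animals, so sex and animal cannot be told apart.

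Kept cells richest in rod transcripts had the highest Hk2. In rods themselves Hk2 had 643 CPM in control, 660 CPM in CCA and 565 CPM in CCANT, far above the kept cells. Among kept cells with over 20 rod marker UMIs per 10000, Hk2 had 93.4 CPM in control (46 cells), 101 CPM in CCA (304 cells) and 99.4 CPM in CCANT (501 cells). Among those with at most 2 it had 17.1 CPM in control (15.8 to 18.6), 18.1 CPM in CCA (15.8 to 20.6) and 27.8 CPM in CCANT (21.6 to 35.3), from 1297, 515 and 109 cells. Between these ends Hk2 moved little in CCA and CCANT, with 19.4 and 26.6 CPM at over 2 to 5 rod UMIs and 22.4 and 29.8 CPM at over 5 to 20, while control had 18.4 and 27.6 CPM. In MG of the passing cells Hk2 had 18.1 CPM in control, 21.1 CPM in CCA and 28.8 CPM in CCANT, and Ldha 113, 139 and 137 CPM. With at most 5 rod UMIs per 10000, the log2 ratio of Hk2 to control was 0.10 in CCA and 0.58 in CCANT, just under 1.5-fold, and that of Ldha was 0.25 and 0.24. Ndufa4l2 had a log2 ratio of 2.88 in CCA and 3.49 in CCANT in the same cells. In CCA its level also differed by rod UMIs, with 14.0 CPM at no more than 2 (from 175 UMIs), then 27.5, 35.8 and 36.9 CPM in the groups above. At no more than 2 control had 3.23 CPM (2.67 to 3.88) and CCANT 39.1 CPM (31.6 to 47.8), so the distance of CCA from control was smaller there than over all kept cells.

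**Figure D3:**
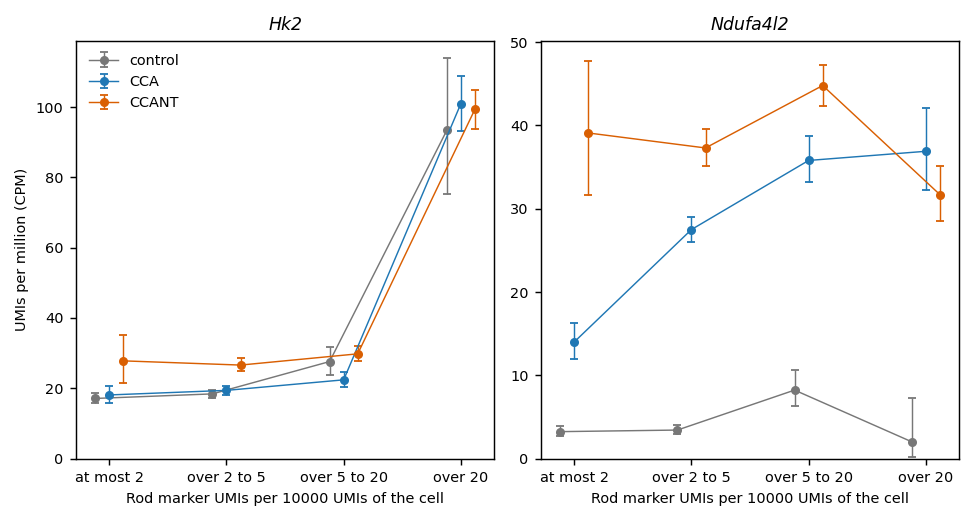
Hk2 and Ndufa4l2 in kept cells grouped by the rod marker UMIs of each cell (x axis, per 10000 UMIs), as CPM (y axis, linear from 0) with exact 95% counting intervals, 1 line for each library. Hk2 reaches 93.4 to 101 CPM in the group with over 20 rod UMIs in all 3 libraries, while Ndufa4l2 in control stays at or below 8.22 CPM.

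The immediate-early genes, a list of 8 chosen after the data were seen, summed to 3772 CPM in control, 7192 CPM in CCA and 6953 CPM in CCANT, none of them at 0, and their part in the levels of the 10 genes was not tested. The median mitochondrial share of UMIs was 3.76%, 3.40% and 3.92%.

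Across the retina, Ndufa4l2 was highest by far in a cluster of 193 cells that carried the pericyte markers Rgs5, Abcc9, Notch3 and Higd1b together with the smooth muscle markers Acta2, Myh11 and Tagln, and which is called pericytes and smooth muscle here. It had 704 CPM there in control (647 to 764, 55 cells), 663 CPM in CCA (624 to 703, 98 cells) and 677 CPM in CCANT (613 to 747, 40 cells). The 3 intervals overlapped, and the log2 ratio to control was -0.09 (-0.23 to 0.06) in CCA and -0.06 (-0.24 to 0.13) in CCANT. Within the cluster, cells with at most 5 smooth muscle UMIs per 10000, at 2554 CPM of Abcc9 in control, had 723 CPM of Ndufa4l2 in control, 721 in CCA and 617 in CCANT. Cells with over 5, at 2345 CPM of Acta2 in control, had 683, 627 and 759 CPM. This split, at a value chosen after the data were seen, left 31 of the 193 cells between 2 and 10 smooth muscle UMIs per 10000.

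All MG of the passing cells, with or without tdTomato UMIs, had 3.86 CPM of Ndufa4l2 in control (3.54 to 4.20, 5647 cells), 29.4 CPM in CCA (28.4 to 30.5, 4713 cells) and 41.1 CPM in CCANT (39.9 to 42.3, 4972 cells). Mixed cells carried MG transcripts with those of rods or, in smaller clusters, of cones, bipolar cells or pigment epithelium. They had 4.92, 23.2 and 33.8 CPM, and in control their interval (3.72 to 6.39) overlapped that of MG. Endothelial cells had 3.96 CPM in control (0.479 to 14.3), 20.8 CPM in CCA (12.7 to 32.1) and 19.6 CPM in CCANT (9.79 to 35.1), and their intervals overlapped those of MG in control and CCA. A UMI was found in 5 of the 47 endothelial cells of CCA, where 1 cell held 9 of the 20 UMIs, and in 5 of the 31 of CCANT, where 1 cell held 6 of the 11. The neurons were lower. Rods had 0.649, 2.18 and 2.96 CPM and cones 0.488, 1.12 and 2.64 CPM in control, CCA and CCANT, from at most 21 UMIs a library. Bipolar cells had 0.400, 2.07 and 2.81 CPM, amacrine cells 0.611, 7.64 and 4.37 CPM, and the intervals of neighbouring neuron classes overlapped in control. In CCA 5 amacrine cells held 55.6% of the 108 UMIs. Retinal ganglion cells had 0.249, 2.85 and 4.08 CPM, and horizontal cells 1, 0 and 1 UMIs. Microglia and macrophages had 1.23 CPM in control (0.493 to 2.53), 3.39 CPM in CCA (1.75 to 5.92) and 12.3 CPM in CCANT (8.68 to 17.0). In CCANT only 8 of the 155 cells had an Ndufa4l2 UMI, and 2 of them held 64.9% of the 37 UMIs. The intervals treat UMIs as independent, and are too narrow where a few cells hold a large share of them, as in these 3 classes. The same held for ganglion cells of CCA, where 1 cell had 75.0% of the UMIs. In mixed cells of control 5 cells had 55.4%, and in unnamed clusters of control 9 cells had 67.9%. Kept cells and MG of control are alike in this, with 52.7% and 52.0% of the UMIs in the top 38 and 57 cells. Astrocytes had 0 UMIs in control, where 15 cells allow up to 4.74 CPM, and 3.56 and 10.5 CPM in CCA and CCANT. T and NK cells and B and plasma cells had at most 5 UMIs a library, and the 3756 cells of unnamed clusters had 1.48, 9.86 and 9.60 CPM. Control was the lowest of the 3 libraries in rods, cones, bipolar, amacrine and ganglion cells, as it was in MG, and UMIs from free RNA in the droplets were not removed. In rods and cones this rests on 3 and 1 control UMIs, and of their ratio intervals only that of CCANT rods (0.45 to 4.58) excluded 0.

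**Figure D4:**
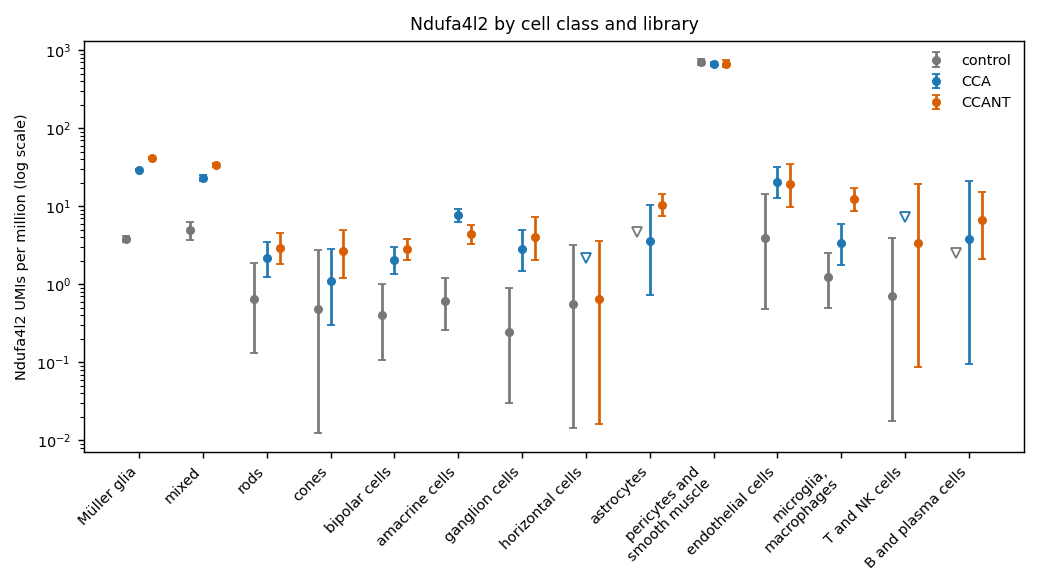
Ndufa4l2 by cell class and library, as CPM on a log axis, with exact 95% counting intervals. Open triangles mark classes with 0 UMIs, drawn at the level that 3 UMIs would give. Pericytes and smooth muscle lie between 663 and 704 CPM in all libraries, and MG at 3.86, 29.4 and 41.1 CPM.

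Pericyte transcripts in kept cells were measured beside this. None of the 9 pericyte markers was at 0 in the kept cells of any library, and together they had 101, 113 and 130 CPM in control, CCA and CCANT. The 4 smooth muscle markers, none at 0 either, summed to 3.04 CPM in control (2.70 to 3.41), 10.4 CPM in CCA (9.74 to 11.1) and 10.2 CPM in CCANT (9.42 to 10.9), lowest in control as Ndufa4l2 was, and their part in its levels was not tested. Rgs5, the leading marker of the mural cluster, had 1.94 CPM in control, 4.18 CPM in CCA and 2.80 CPM in CCANT, and Higd1b 0.178, 0.288 and 0.127 CPM. In the mural cluster there were 12.7, 12.9 and 12.1 Rgs5 UMIs for each Ndufa4l2 UMI, and in kept cells 0.524, 0.149 and 0.0709. Without cells that carried a UMI of Pdgfrb, Rgs5, Kcnj8 or Abcc9, which were 80.0% of control cells, 68.1% of CCA cells and 71.3% of CCANT cells, the log2 ratio of Ndufa4l2 to control was 3.48 in CCA and 3.83 in CCANT, and that of Egln3 in CCA was 0.34.

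In rods 8 of the 10 genes had enough UMIs, and none was at least 1.5-fold higher or lower in CCA, beside 2.12% and 1.51% of all 9822 genes, or in CCANT, beside 6.98% and 3.03% of all 9756. The nearest was Vegfa, at 38.5 CPM in control (33.1 to 44.6), 36.5 CPM in CCA (32.3 to 41.2) and 25.8 CPM in CCANT (22.2 to 29.9), with a log2 ratio of -0.58 (-0.88 to -0.27) in CCANT. Hif1a had 641, 641 and 646 CPM in rods. Ldha had 632 CPM in control (610 to 656), 695 CPM in CCA (676 to 714) and 787 CPM in CCANT (767 to 808). Pgk1 had 288, 285 and 268 CPM, Slc2a1 63.8, 59.4 and 70.3 CPM, Bnip3 47.6, 44.4 and 40.4 CPM and Pdk1 18.4, 19.5 and 18.1 CPM. Egln3 had 0 UMIs in control and in CCANT rods, which allows up to 0.649 and 0.424 CPM, and 3 UMIs in CCA.

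In CCANT rods 10 of 12 complex IV genes were at least 1.5-fold higher than in control, beside 6.98% of all genes, with a list median of 0.82 beside -0.03 for all genes, and Ndufa4 had a log2 ratio of 0.99 (0.92 to 1.06). The same list had 0 of 12 past 1.5-fold in CCA rods, with a median of 0.25 beside 0.01 for all genes, and 1 of 13 in CCANT kept cells, with a median of 0.22 beside 0.03. The median mitochondrial share of rod UMIs was 1.37%, 1.96% and 2.42% in control, CCA and CCANT, and its part in this was not tested. Rods had a median of 5070.5, 4965.5 and 5049.0 UMIs a cell.

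In cones 7 of the 10 genes were counted. Bnip3 was at least 1.5-fold lower in CCA, 1 of 7 beside 1.62% of all 7576 genes, and in CCANT, 1 of 7 beside 1.58% of all 7531, and 0 were higher, beside 1.28% and 2.40%. Bnip3 had 43.9 CPM in control (35.3 to 54.0), 25.2 CPM in CCA (20.3 to 31.0) and 21.4 CPM in CCANT (16.8 to 26.9), so that the control interval lay above both others (log2 ratios -0.80, -1.24 to -0.36, and -1.04, -1.50 to -0.57). Vegfa in cones was lower too, at 106, 83.9 and 77.5 CPM (-0.34, -0.59 to -0.08, and -0.45, -0.71 to -0.18). Slc2a1 had 42.9, 49.4 and 58.7 CPM, Hk2 651, 746 and 709 CPM, Ldha 550, 596 and 522 CPM, Pgk1 282, 306 and 237 CPM and Hif1a 159, 150 and 161 CPM. The cones numbered 154, 263 and 251, and Egln3 had 0 UMIs in all 3 libraries.

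In the pericyte and smooth muscle cluster 7 of the 10 genes were counted in CCA and 5 in CCANT. In CCA 2 were at least 1.5-fold higher, Vegfa and Bnip3, beside 7.63% of all 5253 genes, and 0 lower, beside 3.67%. In CCANT 1 was higher, Slc2a1, beside 5.32% of all 3102 genes, and 0 lower, beside 5.38%. Vegfa had 31.2 CPM in control (20.2 to 46.0), 64.1 CPM in CCA (52.5 to 77.5) and 38.8 CPM in CCANT (24.6 to 58.3). Bnip3 had 31.2, 47.8 and 32.1 CPM, and the interval of its CCA ratio included 0 (0.62, -0.05 to 1.33). Egln3 had 22.5 CPM in control (13.3 to 35.5), 7.86 CPM in CCA (4.19 to 13.4) and 10.1 CPM in CCANT (3.72 to 22.1), from 18, 13 and 6 UMIs. These level intervals overlapped, and control, the lowest library in MG, had the highest value here. The log2 ratio of Egln3 to control was -1.51 in CCA, with an interval that excluded 0 (-2.66 to -0.40). In CCANT it was -1.15, with an interval that included 0 (-2.77 to 0.25). Egln3 had too few UMIs in this cluster to enter the counts of genes past 1.5-fold. Slc2a1 had 59.9 CPM in control (44.1 to 79.4), 84.1 CPM in CCA (70.7 to 99.2) and 92.9 CPM in CCANT (70.0 to 121).

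Cycling cells, kept cells with a UMI of Mki67 or Top2a, numbered 42 in control, 752 in CCA and 299 in CCANT, or 1.12%, 19.3% and 9.12% of kept cells. Only 7, 321 and 112 of them had at least 2 such UMIs, and free RNA was not removed. In CCA, Ndufa4l2 had 39.7 CPM in cycling and 24.9 CPM in other cells (log2 ratio 0.67, 0.54 to 0.80). The 42 cycling cells of control had 4.13 CPM (1.34 to 9.63) beside 3.69 CPM in its other cells (3.31 to 4.10), and these intervals overlapped. In CCA it was the 1 gene of the 10 at least 1.5-fold higher in cycling cells, beside 7.86% of all 14884 genes, and 0 were lower, beside 1.57%. In CCANT, Ndufa4l2 had 41.0 CPM in cycling and 39.2 CPM in other cells (0.06, -0.11 to 0.24), and 0 of the 10 were at least 1.5-fold higher, beside 7.24% of all 14457 genes, or lower, beside 2.75%. In MG clusters alone the cycling ratio of Ndufa4l2 in CCA was 0.55 (0.40 to 0.70), under 1.5-fold. Cells without a cycling UMI had a log2 ratio of Ndufa4l2 to control of 2.75 in CCA and 3.41 in CCANT. With at least 2 cycling UMIs, the cycling ratio of Ndufa4l2 was 0.38 (0.19 to 0.56) in CCA and -0.32 (-0.63 to -0.02) in CCANT. Cycling cells were deeper, with a median of 22172.5 against 20394.0 UMIs in CCA and 22837.0 against 20558.0 in CCANT. Their 9 MG markers, none at 0, summed lower, to 11345 against 14509 CPM in CCA, 10364 against 13303 CPM in CCANT and 14436 against 15918 CPM in control, and the part of this in the ratios was not tested.

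Of the other genes, in CCA all had cycling ratios closer to 0 than Ndufa4l2, but in CCANT 7 lay farther from 0 than its 0.06. Egln3 had 3.25 CPM in cycling and 2.19 CPM in other cells of CCANT (0.57, -0.12 to 1.20, from 24 UMIs in the cycling cells) and 1.25 against 1.35 CPM in CCA (-0.11, -0.86 to 0.57). Bnip3 had 40.9 against 51.2 CPM in CCANT (-0.33, -0.50 to -0.15) and 44.0 against 48.5 CPM in CCA (-0.14, -0.26 to -0.03). Slc2a1 was lower in cycling cells of CCA (218 against 252 CPM, log2 ratio -0.21, -0.26 to -0.16) and of CCANT (227 against 261 CPM, -0.20, -0.28 to -0.13). Ldha and Pgk1 were slightly higher in both, Ldha by 0.18 and 0.14 and Pgk1 by 0.15 and 0.12. Hk2 had 24.4 against 26.2 CPM in CCA (-0.10, -0.26 to 0.05) and 31.8 against 40.7 CPM in CCANT (-0.36, -0.56 to -0.16). Pdk1 had 9.88 against 14.0 CPM in CCANT (-0.50, -0.87 to -0.16), and Hif1a and Vegfa had ratios between -0.07 and 0.02 in both libraries.

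The MG fell into clusters that differed in Ndufa4l2 within a library. In the largest, cluster 1, kept cells had 2.74 CPM in control (2276 cells), 20.7 CPM in CCA (2101 cells) and 31.2 CPM in CCANT (1502 cells). In cluster 3, whose leading genes were Ttr, Egr3, 1200007C13Rik, Socs3 and Arc, they had 15.4 CPM in control (10.4 to 22.0, 77 cells), 39.7 CPM in CCA (37.0 to 42.5, 976 cells) and 50.5 CPM in CCANT (47.8 to 53.4, 1169 cells). In cluster 4, led by interferon-induced genes, they had 4.54 CPM in control (1351 cells), 24.9 CPM in CCA (286 cells) and 70.0 CPM in CCANT (56.3 to 86.0, 59 cells). Egr3 and Arc, with Nr4a3 and Fosl1 further down the same leading genes, are immediate-early genes, whose part in the level of cluster 3 was not tested. Control was the lowest library in each of the 3, and cluster 3 was above cluster 1 in each library. The control value of cluster 3 rests on 30 UMIs and the CCANT value of cluster 4 on 90. How many cells held them was not counted. Cluster 12, led by S phase genes, had no kept control cell, and had 34.6 CPM in CCA (28.3 to 41.9) and 41.0 CPM in CCANT (29.4 to 55.6). Cluster 16, led by Cenpf, Top2a and Mki67 and left unnamed, also had no kept control cell, and had 40.3 CPM in CCA (33.6 to 47.9, 111 cells) and 21.3 CPM in CCANT (13.2 to 32.6, 31 cells). Egln3 too was higher in cluster 3 than in cluster 1. In cluster 1 and cluster 3 it had 0.442 and 4.62 CPM in control, 0.873 and 2.24 CPM in CCA, and 1.14 and 3.35 CPM in CCANT. Its control values rest on 25 UMIs (0.286 to 0.653 CPM) and 9 UMIs (2.11 to 8.76 CPM). The clusters were made without these genes, and they take different shares of each library. At resolution 1.0 a cluster also led by Ttr, Egr3, Arc and Socs3 was called mixed, and held 794 kept cells. Its MG markers lay a median log2 of 2.15, and its smooth muscle markers 1.88, above the median cluster. How many cells of cluster 3 it took was not counted. The part of smooth muscle transcripts in the Ndufa4l2 level of cluster 3 was not tested.

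Kept MG were also split, at 8000 UMIs a cell, into those with and without an Ndufa4l2 UMI, which were 67 and 3611 cells in control, 414 and 3033 in CCA, and 389 and 2345 in CCANT. Vegfa differed in all 3 libraries, at 254 against 124 CPM in control (log2 ratio 1.03, 0.78 to 1.28), 362 against 154 CPM in CCA (1.23, 1.14 to 1.33) and 292 against 118 CPM in CCANT (1.31, 1.20 to 1.42). Ldha was higher in cells with an Ndufa4l2 UMI in all 3 libraries (0.57, 0.52 and 0.53), as were Slc2a1 (0.55, 0.35 and 0.25) and Pgk1 (0.31, 0.25 and 0.41). Bnip3 had ratios of 0.30 (-0.22 to 0.78), 0.31 (0.08 to 0.53) and 0.44 (0.22 to 0.65). Hif1a had ratios of 0.07, 0.06 and -0.07, and Hk2 of 0.42, 0.23 and 0.15, with intervals that included 0 in each library. Pdk1 had ratios of 0.83 (-0.09 to 1.62), 0.40 (-0.07 to 0.84) and 0.10 (-0.39 to 0.57). Cox4i2, from the complex IV list, was higher in cells with an Ndufa4l2 UMI, by 0.21 (0.04 to 0.37), 0.26 (0.19 to 0.34) and 0.36 (0.28 to 0.43). Egln3 had 15 against 30 UMIs in CCANT (1.59, 0.59 to 2.53) and 7 and 1 UMIs in cells with an Ndufa4l2 UMI in CCA and control.

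Beside this split, the rod markers had a log2 ratio of 0.00 in control, 0.15 in CCA and 0.06 in CCANT, and the pericyte markers 0.17 (-0.22 to 0.54), -0.05 (-0.22 to 0.12) and 0.09 (-0.08 to 0.25). Rgs5 alone had 11.2 against 1.90 CPM in control (2.56, 1.05 to 3.77, from 6 UMIs in the cells with), 3.93 against 3.50 CPM in CCA and 5.46 against 1.71 CPM in CCANT. The cycling pair had 26.9 against 21.0 CPM in CCA (0.36, 0.02 to 0.68) and 14.5 against 9.86 CPM in CCANT (0.55, 0.05 to 1.03), and the part of these in the split was not tested.

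**Figure D5:**
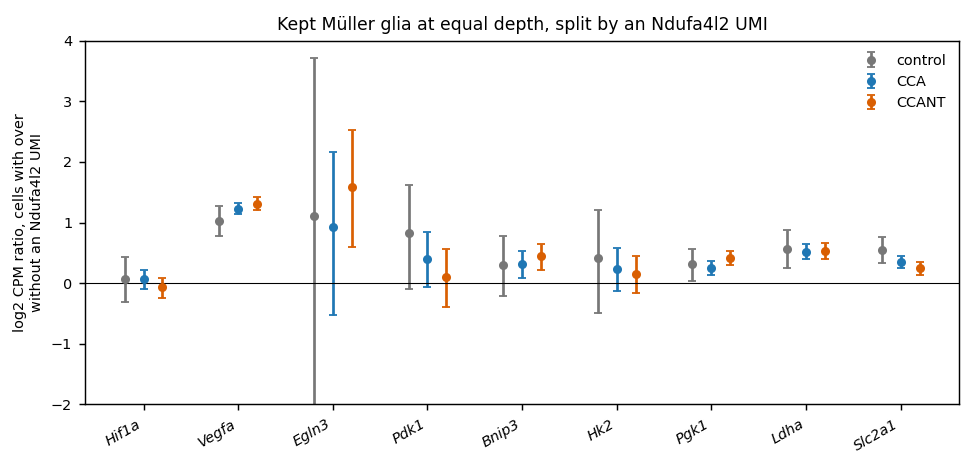
Log2 ratios of CPM between kept MG with and without an Ndufa4l2 UMI, at 8000 UMIs a cell, for the other 9 genes in each library, with exact 95% counting intervals (the interval of Egln3 in control runs below the axis). Vegfa lies at 1.03, 1.23 and 1.31 in control, CCA and CCANT, and Hif1a between -0.07 and 0.07.

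Over 28 points, the cell classes and libraries with at least 50 cells, the genes whose log2(CPM + 1) was most like that of Ndufa4l2 among 16915 genes were Cavin1, a coat protein of caveolae (Pearson r = 0.94), Myl9, a myosin light chain of contractile cells (0.93), Ppic (0.93), Hspb2 (0.93) and Hspg2, the basement membrane proteoglycan perlecan (0.92). These values are descriptions, since the points share libraries and 2 of them are the mural cluster. Without those 2, the r of these 5 lay between 0.79 and 0.87, and the most alike was Gm26802 (0.95). Of the other members Egln3 had the highest r (0.44, and 0.13 without the mural points), followed by Slc2a1 (0.42 and 0.72) and Vegfa (0.15 and 0.53). The other six lay between -0.54 (Pgk1) and -0.08 (Pdk1), and between -0.42 (Ldha) and -0.09 (Pdk1) without the mural points.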

How the data were processed

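Single-cell RNA was captured with 10x 3′ chemistry. Per the labels, the authors aligned the reads with Cell Ranger 6.1.1 to mm10. Intronic reads are included, so a level counts nascent RNA too. The deposited values are raw UMI counts per gene and cell, in a matrix for each library and in a series-wide table of 10926 cells, which defined the kept cells. Passing cells (at least 2000 genes, at most 100000 UMIs and 15% mitochondrial UMIs) were clustered with Leiden (leidenalg 0.10.2) at resolution 0.5 on 2000 variable genes, 20 components and 20 neighbours, without the 10 genes, the lists, sex genes or transgenes. Clusters were named from marker lists, by thresholds set after the clusters were seen. Free RNA was not removed, and doublets were not removed beyond the authors' table.

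UMIs were summed per library and cell group and divided by their total (CPM). Intervals are exact 95% Poisson intervals for levels, conditional exact intervals for ratios and Clopper-Pearson intervals for shares, computed with scipy 1.17.1. The ratio intervals were run on simulated Poisson counts, which held no spread between cells or animals. This cannot show how they cover such spread. With 1 library a group no p-value was computed. Counts of genes past 1.5-fold use genes with at least 100 UMIs over the cells compared. A 0 count allows up to 3 counts. Cells were called male with at least 3 UMIs of Y genes and at most 1 of Xist, and female the other way round. All members are named. From each list the 3 largest rises and falls past 1.5-fold in kept cells are named, with Ndufa4 and Cox4i2. The members and lists were chosen with earlier results of these data known. Tamoxifen and virus details follow the labels, which differ from the study's methods in tamoxifen dose and day and in the control shRNA. Positions are from GENCODE vM21.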

Additional observations from a re-analysis of the deposited data

Results flagged for a closer look

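In these comparisons the interval of a gene's ratio to control lay on opposite sides of 0 in photoreceptors and in kept cells, and the difference itself was not tested, since each group is 1 library. Vegfa had a log2 ratio of CCA to control of -0.34 in cones (-0.59 to -0.08) and 0.41 in kept cells. In CCANT it had a ratio of -0.58 in rods (-0.88 to -0.27) and -0.45 in cones (-0.71 to -0.18), beside 0.11 in kept cells. Hk2 had a ratio of CCANT to control of -0.19 in rods (-0.25 to -0.12) and 1.04 in kept cells, where the rod markers summed to 1790 CPM in CCANT and 335 CPM in control.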

How the results depend on the processing

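With 1 library a group no alternative changes a test, and counting intervals understate the spread between animals, which was not measured. No paired analysis was possible because each group has 1 library. Leaving out cells marked by Scrublet gave no value, since it marked 0 passing cells in control and in CCANT. The log2 ratio of Ndufa4l2 in kept cells ranged from 2.75 to 3.48 in CCA and from 3.38 to 3.83 in CCANT over the alternatives tried on kept cells. Smaller groups of kept cells lay outside these ranges, some below and some above. In CCA they included 14.0 against 3.23 CPM in control at no more than 2 rod UMIs per 10000 and 39.7 against 15.4 CPM in cluster 3. In CCANT they included 50.5 against 15.4 CPM in cluster 3 and 44.8 against 8.22 CPM at over 5 to 20 rod UMIs. Above the range in CCANT lay cluster 4, with 70.0 against 4.54 CPM. The ratio over all kept cells left its main interval without pericyte gene UMIs (3.48 and 3.83), without cycling cells (2.75 in CCA) and in male cells (3.63 in CCANT). Members at least 1.5-fold different in CCA kept cells numbered 1 instead of 2 without pericyte gene UMIs and at 2-fold. In cycling CCA cells the count of 1 became 0 in MG clusters alone, without pericyte gene UMIs, without the tdTomato filter, with at least 2 cycling UMIs, after thinning and at 2-fold. The MG clusters leave out the unnamed cluster 16, led by Cenpf, Top2a and Mki67. In cycling CCANT cells the count of 0 became 1 with at most 5 rod UMIs per 10000, without pericyte gene UMIs and after thinning, and 2 with at least 2 cycling UMIs. At resolution 1.0 the CCANT rods had 1 instead of 0. At 2-fold the counts became 0 in CCA cones, 1 in CCA pericytes and 0 in CCANT pericytes. With 1 UMI as the minimum they became 2 in CCA rods, 3 in CCA cones, 5 in CCA pericytes, 1 in CCANT rods, 3 in CCANT cones and 3 in CCANT pericytes. Unthinned shares of cells with an Ndufa4l2 UMI were 4.92%, 18.6% and 24.8%. In the split by an Ndufa4l2 UMI, Vegfa in CCA was 1.40 with at most 5 rod UMIs per 10000. Without pericyte gene UMIs, which left few cells, Vegfa in CCANT was 1.51, Egln3 in CCA 2.99, Bnip3 in control -0.60, Hk2 in CCANT -0.58, Pgk1 in control -0.39, Ldha in CCANT 0.37 and Slc2a1 in control 0.84. The cause of these shifts was not tested. Of 479 further values of single genes, 342 stayed within their main interval, 137 left it and 0 reversed a ratio past 1.5-fold.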
